A study of Bos taurus with 16 samples.

Results

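SLC16A1 and SLC16A3 are the genes of the monocarboxylate carriers MCT1 and MCT4. They were chosen by name as 2 of 12040 genes with at least 1 exon region in RNA sequencing of rumen papillae, the leaf-like projections of the rumen wall, and all of their annotated regions were read in all 16 animals. The animals were crossbred steers aged 344 ± 48 days with free access to 1 shared ration, and none received a treatment. Selection was by quadrant of weight gain and feed (dry matter) intake, with 4 animals in each of 4 groups: HGHI (both high), HGLI (gain high, intake low), LGHI (gain low, intake high) and LGLI (both low). A level is read coverage averaged over the bases of a region and scaled by the authors, which brought all libraries to nearly equal totals. Levels of different genes are on the same per-base scale. Regions can also hold intron or intergenic sequence, so ranks and ratios between genes are approximate. The best covered of a gene's exon-bearing regions, by mean over all libraries, stands for the gene.

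Monocarboxylate carriers move lactate, pyruvate, ketone bodies and some short-chain fatty acids across membranes together with a proton, in the direction set by the gradients. In the rumen, microbes ferment feed to short-chain fatty acids, which the epithelium takes up and partly turns into ketone bodies, and MCT1 is known there as a route for these acids and for lactate towards the blood. MCT4 is best known for the export of lactate from glycolytic cells. Both carriers need the membrane protein basigin, encoded by BSG, to reach the cell surface.

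SLC16A1 was among the most highly covered genes of the papillae and SLC16A3 was near the lower limit of what was tested. SLC16A1 averaged 109 ± 65.0 over the 16 libraries (SD), which placed it at rank 145 of 9470 tested genes. SLC16A3 averaged 0.399 ± 0.309, above 2.43% of tested genes. Tested genes are those of the 12040 that passed a minimum level, so this share leaves out the genes removed by that filter. The ratio of the 2 means was 272. The region behind the SLC16A3 level held an estimated 1.02 to 38.4 reads per library, against 4789 to 42750 for SLC16A1, so single values of SLC16A3 rest on few reads.

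SLC16A1 was lower in 7 of 8 high-intake animals than in any low-intake animal. In HGHI, its level was 53.9, 54.8, 50.2 and 174 in replicates 1 to 4. In HGLI it was 117, 182, 101 and 164. In LGHI it was 72.8, 77.0, 75.4 and 30.1. These values show 7 high-intake animals between 30.1 and 77.0 and 1, HGHI replicate 4, at 174. In LGLI the level was 96.4, 99.6, 286 and 106. All 8 low-intake animals therefore lay above those 7 high-intake animals, and within low-intake animals the range was 96.4 to 286. HGHI replicate 4 and 4 of the 8 low-intake animals have libraries with thin coverage of first exons, which are described below. The share of all genes with this pattern of 7 of 8 animals was not computed.

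**Figure D1:**
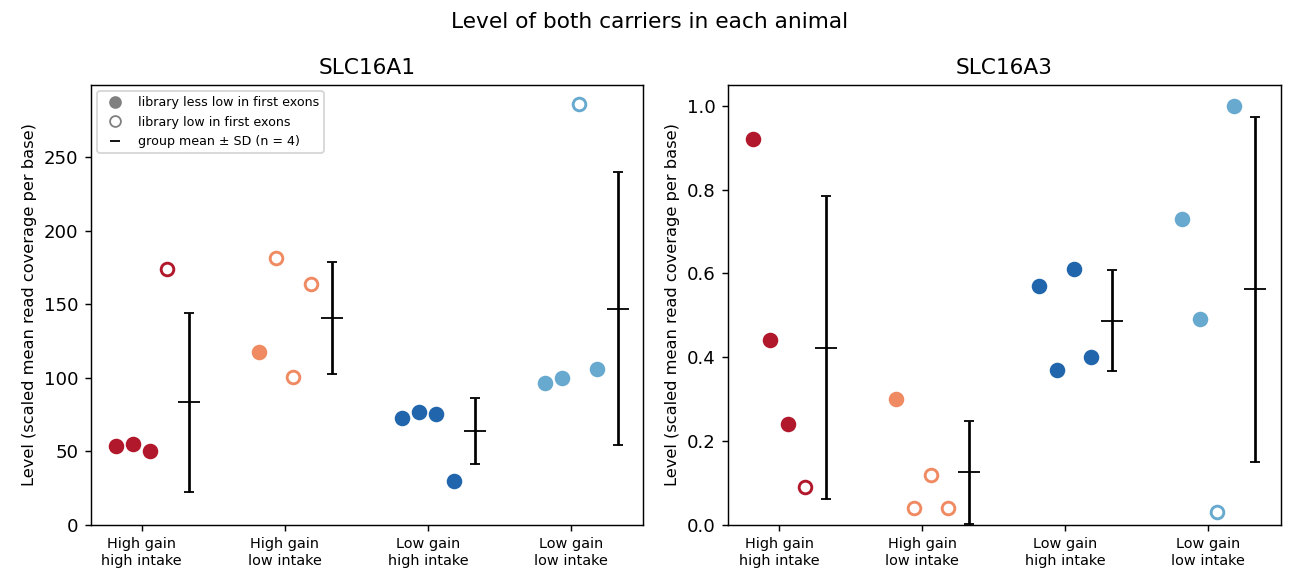
Level of SLC16A1 (left) and SLC16A3 (right) in each of 16 animals, as scaled mean read coverage per base, by group of gain and intake. Points are animals, open points are the 5 libraries with thin coverage of first exons, and bars give group mean ± SD (n = 4); 7 of 8 high-intake animals have less SLC16A1 (30.1 to 77.0) than every low-intake animal (96.4 to 286).

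SLC16A1 averaged 73.5 ± 43.6 at high intake and 144 ± 65.7 at low intake (SD, n = 8 each), a log2 difference of -1.03 (SE 0.33). The difference did not pass the test across all genes (limma with Benjamini-Hochberg adjustment over 9470 genes, adjusted p = 0.529, unadjusted p = 0.00704, rank 99). An exact two-sided permutation test of SLC16A1 by itself gave p = 0.00606 over 12870 arrangements of 8 against 8 libraries, and 7 of 8 high-intake libraries lay below the low-intake median. This p stands for 1 gene that was chosen with earlier results of these data known, and is not adjusted. It is among 4 such tests of 2 genes by gain and by intake, each also run without the libraries with thin coverage of first exons. No gene of the 9470 passed for intake in either direction (limma, 0 higher, 0%, and 0 lower, 0%). Limma called 2 genes higher with levels averaged over all exon regions and 1 higher without HGHI replicate 4, with 0 lower in both; SLC16A1 was not called in either fit. Before adjustment 233 genes were higher (2.46%) and 550 lower (5.81%) with p under 0.05, while a plain limma fit (no trend, not robust) called 0 genes after and 775 before adjustment. In bulk tissue, fewer cells of a type and less RNA per cell cannot be told apart.

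The libraries differed in a way that touches both genes. Estimated depth was 11.9 to 21.2 M reads per library. Regions with an exon, which can also hold intron or intergenic sequence, held 52.4% to 68.9% of the summed coverage. Coverage of first exons was measured over 2172 genes as the median log2 ratio of the first exon to the other exons of the same gene. This index was -5.05 to -3.86 in 5 libraries and -2.85 to -1.52 in the other 11. The 5 low libraries were replicate 4 of HGHI, replicates 2, 3 and 4 of HGLI and replicate 3 of LGLI. High intake held 1 of them and low intake 4, and high gain held 4 and low gain 1.

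SLC16A1 was higher and SLC16A3 lower in the libraries low in first exons. SLC16A1 averaged 181 ± 66.7 in these 5 libraries and 75.8 ± 27.1 in the other 11 (SD), with ranges of 101 to 286 and 30.1 to 117 that overlapped. SLC16A3 averaged 0.064 ± 0.0391 in the 5 libraries and 0.552 ± 0.246 in the other 11. Its ranges, 0.03 to 0.12 and 0.24 to 1.00, did not overlap, which also held for 19.5% of the 9470 tested genes in this direction and for 3.15% in the other. The part of first-exon coverage in the group differences of either gene was not tested further than by the values without the 5 libraries and with the index in the model.

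**Figure D2:**
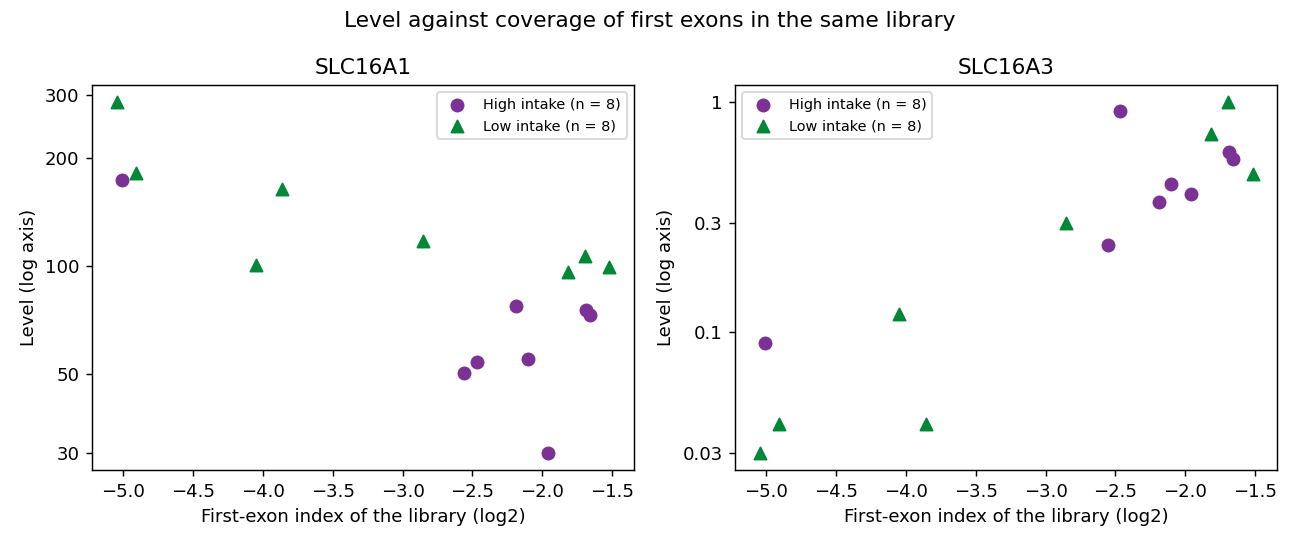
Level of SLC16A1 (left) and SLC16A3 (right) on a log axis against the first-exon index of the library (log2), for 8 high-intake and 8 low-intake libraries. The 5 libraries with an index from -5.05 to -3.86 have SLC16A1 levels of 101 to 286 and SLC16A3 levels of 0.03 to 0.12, and among the other 11 the low-intake libraries lie above the high-intake ones for SLC16A1.

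Among the 11 libraries less low in first exons, the intake groups of SLC16A1 did not overlap. It stood at 30.1 to 77.0 in 7 high-intake libraries (mean 59.2 ± 17.1, SD) and at 96.4 to 117 in 4 low-intake libraries (mean 105 ± 9.29, SD). Of the 9470 tested genes, 1.29% were lower at high intake without overlap in these libraries and 0.169% were higher. The exact permutation test of these 11 libraries gave p = 0.00606 over 330 arrangements, and limma gave a log2 difference of -0.95 (SE 0.26, adjusted p = 0.372). HGLI keeps 1 library there, so 1 animal stands for that group. The permutation test of the 11 libraries was added after seeing the data, is not adjusted and does not account for gain. With the index in the model the limma difference was -0.67 (SE 0.22, adjusted p = 0.547), against -1.03 without it. Among the 11 libraries the SLC16A1 level was not detectably related to the index (Pearson r = 0.136, permutation p = 0.691, Spearman rho = 0.191, permutation p = 0.579; adjusted p = 0.691 and 0.579 over 3 relations). Without the 2 libraries farthest from the median index, r was 0.508.

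The group order of SLC16A1 was LGLI (147 ± 92.7), HGLI (141 ± 38.1), HGHI (83.3 ± 60.6) and LGHI (63.8 ± 22.6; SD, n = 4 each). By median, HGLI came first at 141, ahead of LGLI at 103, LGHI at 74.1 and HGHI at 54.3. Neighbouring groups in the order of means did not differ beyond their spread, with exact permutation p of 0.904, 0.274 and 0.876, adjusted over 12 pairs, for HGLI against LGLI, HGHI against HGLI and HGHI against LGHI. The ranges of 2 pairs did not overlap. LGHI was below LGLI (log2 -1.13, and -0.75 without LGLI replicate 3), as were 2.12% of the 9470 tested genes without overlap, with 1.00% above. HGLI was above LGHI (log2 1.2), as were 12.1% of tested genes without overlap, with 16.9% below. Each gave an exact permutation p of 0.0286, the smallest that 4 against 4 animals allow, and 0.114 after Benjamini-Hochberg adjustment over the 12 pairs, 6 for each carrier.

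By gain, the SLC16A1 means lay close together. The mean was 112 ± 56.1 in high-gain and 105 ± 76.7 in low-gain animals (SD, n = 8 each), a log2 difference of 0.16 (SE 0.33, limma adjusted p = 0.885). The sign turned without HGHI replicate 4 (-0.05), without LGHI replicate 4 (-0.0036) and in a fit that includes the first-exon index (-0.44). For gain, limma called 0 of 9470 genes higher (0%) and 0 lower (0%), with 93 (0.982%) and 412 (4.35%) at unadjusted p under 0.05. This count depends on the libraries and on the index: limma called 765 genes higher and 124 lower with the index in the model, 1 higher and 70 lower without LGLI replicate 3, and 0 higher and 64 lower without the 5 libraries. Neither carrier was among them. The interaction of gain and intake was 0.19 for SLC16A1 (SE 0.66, limma adjusted p = 1.00), with 0 genes (0%) called in either direction and 14 higher (0.148%) and 36 lower (0.380%) before adjustment.

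HGLI, the quadrant of animals that gained much on little feed, was set against LGHI. SLC16A1 averaged 141 ± 38.1 in HGLI and 63.8 ± 22.6 in LGHI (SD, n = 4 each), a log2 difference of 1.2 (SE 0.47, limma adjusted p = 0.367). The estimate was 0.97 (adjusted p = 0.442) without the 5 libraries low in first exons, which leaves 1 animal in HGLI. Fitted with the index, it was 0.23 (adjusted p = 0.785). Limma called 0 of 9470 genes here, 0% in each direction, with 392 higher (4.14%) and 890 lower (9.40%) at unadjusted p under 0.05. It called 1 gene higher without LGHI replicate 3 and 2 lower without the 5 libraries, SLC16A1 in neither. The plain limma fit called 0 genes here as well, with 1280 at unadjusted p under 0.05.

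The intake difference of SLC16A1 ran along most of its transcript. The gene lies on chromosome 3 of UMD3.1, and its exons fall into 6 covered regions between 30533787 and 30565145. The region that represents the gene, chr3:30559092-30565145, is 6054 bases long and is annotated with exon 5, adjoining intron and sequence past the annotated end of the gene. The longer region of exon 4, chr3:30556763-30558265, is also annotated with adjoining intron and had a mean level of 86.3. It stood at 38.3, 50.9, 42.2 and 106 in HGHI, and at 95.6, 156, 87.4 and 126 in HGLI. It stood at 84.6, 62.2, 75.5 and 21.1 in LGHI, and at 95.1, 97.1, 142 and 99.9 in LGLI. Only HGHI replicate 4 of the 8 high-intake animals reached the low-intake range of 87.4 to 156 in this region. The next highest, LGHI replicate 1, was at 84.6. The share of all exon regions with this pattern was not computed.

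The regions of exon 3, of exon 2 and of the end of exon 4 with intron had mean levels of 9.72, 3.41 and 0.867, and each holds intron as well as exon sequence. The exon 3 region was at 3.74 to 10.6 in HGHI and 2.27 to 9.71 in LGHI, and at 10.9 to 17.1 in HGLI and 9.65 to 17.2 in LGLI. In a fit over 71017 exon regions, the estimates for high minus low intake were -1.01 for exon 2, -1.01 for exon 3, -1.02 for both regions of exon 4 and -1.03 for exon 5. All 5 had unadjusted p from 0.00309 to 0.048 and adjusted p = 0.64 (limma). Of all exon regions, 3.95% were lower with an unadjusted p under 0.05 and 2.26% higher, and 0 passed in either direction (0%). The regions of 1 gene come from the same animals and are not independent of each other.

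Exon 1 had an intake estimate of opposite sign with a wide standard error. Its region, chr3:30533787-30533998, was listed at 0 in 5 of the 16 libraries, among them 4 of the 5 libraries low in first exons. In HGHI it was at 3.96, 9.51, 0 and 0, and in HGLI at 0.36, 0.26, 0 and 0. In LGHI it was at 16.0, 3.58, 24.0 and 2.07, and in LGLI at 16.9, 26.4, 0 and 19.9. High gain therefore reached at most 9.51, and 7 of 8 low-gain libraries had a level of at least 2.07. The estimate was 1.21 for high minus low intake (SE 1.26, limma adjusted p = 0.678) and -4.00 for high minus low gain (SE 1.26, unadjusted p = 0.00617, adjusted p = 0.332). High gain holds 4 of the 5 libraries low in first exons, and so does low intake. Without these 5, exon 1 was at 0 to 24.0 in 7 high-intake libraries and at 0.36 to 26.4 in 4 low-intake libraries. The part of first-exon coverage in the exon 1 values was not tested. As a share of the exon 5 level, exon 1 was at most 0.00143 in the 5 libraries and 0 to 0.319 in the other 11.

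**Figure D3:**
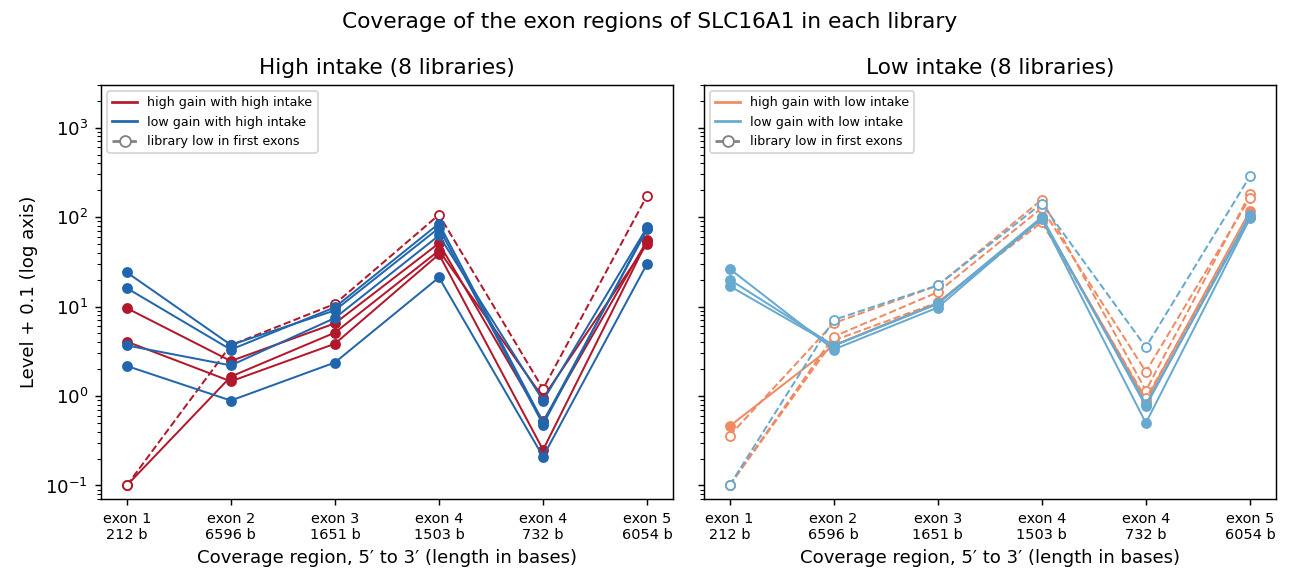
Coverage of the 6 exon regions of SLC16A1 from 5′ to 3′ in each library, as level + 0.1 on a log axis, for 8 high-intake (left) and 8 low-intake (right) animals; dashed lines are the 5 libraries low in first exons. Exon 4 and exon 5 carry most of the coverage (means of 86.3 and 109), and exon 1 is at 0 in 5 libraries. All 6 regions are annotated with intron as well as exon.

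Coverage outside the annotated exons of SLC16A1 had estimates in the same direction. Downstream of the exon 5 region, 5 intergenic regions within 1175 bases had a summed length of 769 bases and a mean level of 30.5 ± 17.8 at high intake and 55.3 ± 24.8 at low intake (SD, n = 8 each). Their level was 0.333 to 0.543 of that of exon 5 in every library. The log2 difference for intake was -0.90 (exact permutation p = 0.0109), and -0.72 in the 11 libraries less low in first exons (exact permutation p = 0.00606). There the downstream level was 16.3 to 31.8 at high intake and 35.4 to 46.0 at low intake, with no overlap. The share of comparable regions without overlap was not computed. The downstream regions lie beside exon 5 and come from the same animals, so their difference is not independent of that of exon 5. The 25 regions annotated as intron alone had a mean level of 0.291 ± 0.13 at high intake and 0.665 ± 0.315 at low intake, 0.211% to 0.737% of the exon 5 level. Their difference was -0.94 (exact permutation p = 0.0028), and -0.53 without the 5 libraries (exact permutation p = 0.0818). An intergenic region of 2266 bases that ends 63 bases before the exon 1 region was covered in all 16 libraries, at 3.21 ± 1.2 at high intake and 4.4 ± 0.912 at low intake. Its difference was -0.51 (exact permutation p = 0.0379), and -0.65 without the 5 libraries (exact permutation p = 0.0515). It was at 3.32 to 6.25 in the libraries low in first exons and at 1.66 to 4.94 in the other 11. The 6 permutation p-values for these regions are not adjusted, and the regions were looked at after the exon values were known.

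SLC16A3 was barely covered in any group. It lies on chromosome 19 of UMD3.1, and the region that represents it, chr19:51243703-51245085, holds exon 6 with adjoining intron and intergenic sequence. In HGHI its level was 0.92, 0.44, 0.24 and 0.09, and in HGLI 0.30, 0.04, 0.12 and 0.04. In LGHI it was 0.57, 0.37, 0.61 and 0.40, and in LGLI 0.73, 0.49, 0.03 and 1.00. Every group but LGHI held at least 1 library under 0.13, and each of those libraries is low in first exons. The gene reached the minimum of the filter, 0.5, in 5 libraries from 3 groups, none of them HGLI.

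The other 8 exon regions of SLC16A3 did not pass the filter. The larger of the exon 5 regions, 651 bases long, had a mean of 0.136 and was above 0 in 12 of 16 libraries. The remaining 7 regions were above 0 in 1 to 5 libraries, and the single region of exon 1 was above 0 in 1 library, LGLI replicate 4. The 25 intron regions of the gene were each above 0 in 1 or 2 libraries.

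SLC16A3 had lower estimates at high gain, and no comparison passed. Its mean was 0.274 ± 0.296 in high-gain and 0.525 ± 0.284 in low-gain animals (SD, n = 8 each), a log2 difference of -0.87 on the scale of log2(level + 0.1) (SE 0.47, limma adjusted p = 0.847, exact permutation p = 0.0929). Fitted with the index, the estimate was 0.04, opposite in sign, and in the 11 libraries less low in first exons it was -0.52. It averaged 0.455 ± 0.252 at high intake and 0.344 ± 0.366 at low intake, a difference of 0.63 (SE 0.47, limma adjusted p = 0.529, exact permutation p = 0.231), and 0.01 without the 5 libraries. The group means were 0.563 ± 0.412 in LGLI, 0.488 ± 0.12 in LGHI, 0.423 ± 0.361 in HGHI and 0.125 ± 0.123 in HGLI (SD, n = 4 each). The ranges of HGLI and LGHI did not overlap (log2 -1.50, exact permutation p = 0.0286, 0.114 over the 12 pairs), as for 16.9% of tested genes in this direction. In HGLI, 3 of the 4 animals are libraries low in first exons. The limma estimate for that pair was -1.50 (SE 0.66, adjusted p = 0.367), and -0.05 with the index in the model. The other 5 pairs of groups overlapped, with exact permutation p from 0.143 to 0.943. The interaction was 0.92 (SE 0.94, limma adjusted p = 1.00). With 1 library left out it ran between 0.51 (without HGHI replicate 1) and 1.58 (without LGLI replicate 3), and the intake difference between 0.30 (without LGLI replicate 3) and 0.83 (without HGHI replicate 4).

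The levels of the 2 carriers were not detectably related across the 11 libraries less low in first exons (Pearson r = 0.241, permutation p = 0.479, Spearman rho = 0.2, permutation p = 0.558; adjusted p = 0.691 and 0.579 over 3 relations). Without the 2 libraries farthest from the median of SLC16A1, r was 0.451. The relation of SLC16A3 to the index in these libraries was r = 0.50 (permutation p = 0.119, adjusted 0.356) with rho = 0.527 (permutation p = 0.101, adjusted 0.304). It rests on few libraries, since r was 0.0095 without the 2 farthest from the median index. The ratio of SLC16A1 to SLC16A3 was 838 to 9533 in the 5 libraries low in first exons and 58.5 to 391 in the other 11. In the 5 libraries the SLC16A3 level corresponds to an estimated 1.02 to 5.03 reads.

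SLC16A1 was the only member of its gene family with a high level. Of a list of 19 monocarboxylate carriers and partner proteins, 12 were measured and 8 tested, and the lowest SLC16A1 level of 30.1 lay above the highest levels of the other 8 measured SLC16A genes, 0.42 to 1.22. SLC16A13 averaged 0.626 ± 0.315. SLC16A7, which encodes MCT2, averaged 0.241 ± 0.148 and did not pass the filter. SLC16A4, SLC16A6, SLC16A10 and SLC16A14 were listed at 0 in 12, 9, 14 and 14 of 16 libraries. SLC5A8, the gene of a sodium-coupled monocarboxylate carrier, averaged 0.844 ± 0.853.

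BSG, whose product basigin carries MCT1 and MCT4 to the membrane, was as highly covered as SLC16A1, at 132 ± 65.2 over the 16 libraries. It averaged 137 ± 58.2 at high intake and 127 ± 75.2 at low intake (n = 8 each, log2 0.30, SE 0.47, limma adjusted p = 0.694), and the estimate was -0.30, opposite in sign, in the 11 libraries less low in first exons. BSG stood at 24.6 to 122 in the 5 libraries low in first exons and at 83.3 to 225 in the other 11. NPTN, which encodes neuroplastin, a relative of basigin, averaged 22.9 ± 13.4 at high intake and 27.3 ± 7.84 at low intake (log2 -0.34, SE 0.24, limma adjusted p = 0.529). Of the 8 tested genes of the list, 0 passed in either direction for intake, and 1, SLC16A1, was lower at unadjusted p under 0.05. The median difference was 0.03, beside -0.01 over all 9470 tested genes, and -0.43 beside -0.13 without the 5 libraries.

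**Figure D4:**
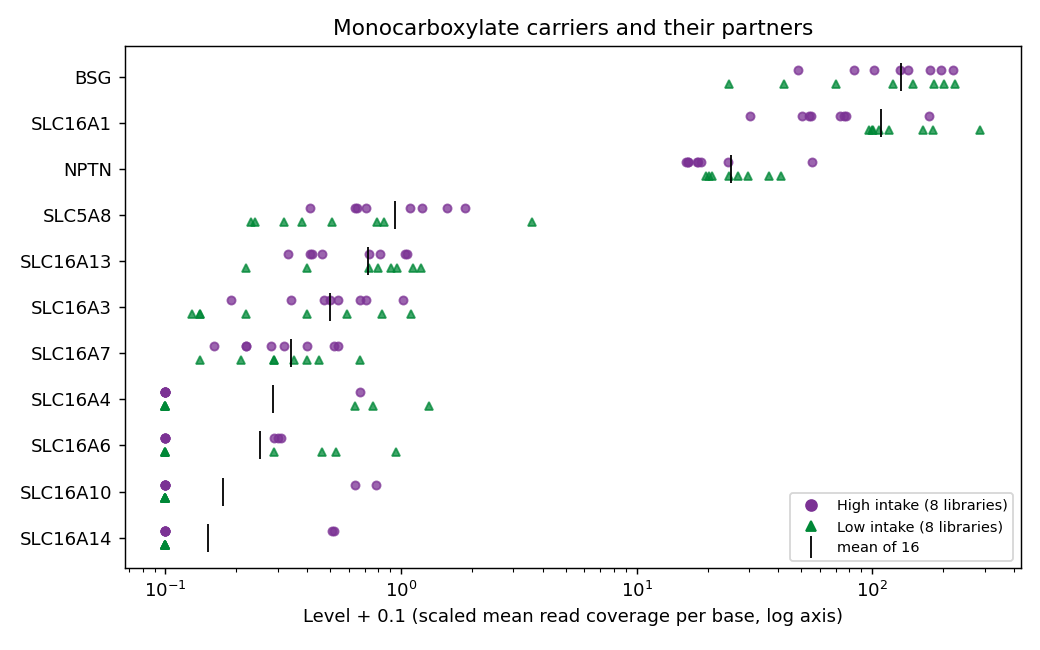
Level + 0.1 (scaled mean read coverage per base, log axis) of 11 measured monocarboxylate carriers and partner genes in 8 high-intake and 8 low-intake libraries, with the mean of 16 as a bar. SLC16A1 (mean 109), BSG (132) and NPTN (25.1) stand apart from the other 8 genes shown, whose means are 0.0519 to 0.844.

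Genes tied to the substrates of these carriers are described from lists set by function, for which no gene passed in any of the 4 comparisons (limma). Among lactate and ketone body enzymes, 10 of 15 tested genes had lower estimates at high intake (median log2 -0.24) and 2 had unadjusted p under 0.05. Over all 9470 tested genes, 50.4% of estimates were lower at high intake and 5.81% were lower at unadjusted p under 0.05. ACAT1, which encodes an enzyme of both making and using ketone bodies, averaged 75.4 at high intake and 121 at low intake (log2 -0.73, SE 0.22), and is 1 of these 2 genes. In the 11 libraries less low in first exons its difference was -0.80. LDHA, the gene of a lactate dehydrogenase subunit, averaged 563 in high-intake and 700 in low-intake animals (log2 -0.31, SE 0.24), and its estimate was -0.08 in the 11 libraries. The limma adjusted p was 0.529 for ACAT1 and 0.532 for LDHA.

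The list for PPAR receptors and their targets in fatty acid oxidation has 15 tested genes, among them the receptors PPARA, PPARD and PPARG. Of the 15, 12 had lower estimates at high intake (median log2 -0.45) and 4 had unadjusted p under 0.05, beside the same 50.4% and 5.81% over all tested genes. HADHB, a subunit gene of mitochondrial beta-oxidation, averaged 40.9 in high-intake and 54.5 in low-intake animals (log2 -0.45, SE 0.17), and HADHA, its partner subunit, averaged 21.2 in high-intake and 30.1 in low-intake animals (log2 -0.54, SE 0.34). Of 17 hypoxia-responsive genes, 12 had higher estimates at high intake (median 0.21) and 3 had unadjusted p under 0.05, beside 2.46% of all tested genes in that direction, with a median of -0.02 without the 5 libraries low in first exons. In that list ALDOA, a glycolysis gene, and EPAS1, the gene of a hypoxia-inducible transcription factor, have the highest levels. ALDOA averaged 63.5 at high intake and 48.5 at low intake (log2 0.98, SE 0.84), with an estimate of -0.00044 in the 11 libraries less low in first exons. EPAS1 averaged 43.2 in high-intake and 48.6 in low-intake animals (log2 -0.16, SE 0.18). Of 11 tested genes of acid and ion handling, 5 had higher and 6 lower estimates (median -0.13), and 1, SLC9A3, a sodium-proton exchanger gene, had unadjusted p under 0.05. It averaged 38.7 at high intake and 20.3 at low intake (log2 0.92, SE 0.31), with an estimate of 0.35 in the 11 libraries. CA1, a carbonic anhydrase gene with the highest level of this list, differed by -0.50 (SE 0.32). SLC9A3 was named after its value was seen.

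The genes with levels most like those of SLC16A1 were ITGA6, METTL7A and DRAM2. They were among its 5 closest genes both over 16 libraries and over the 11 less low in first exons. Tested genes named only by a locus number were left out of this ranking and of its shares of genes with an absolute r over 0.5. Over the 11 libraries, Pearson r of the log2 levels was 0.966 for ITGA6, an integrin subunit gene of basal epithelial cells, 0.962 for FAT1, 0.953 for DRAM2, 0.949 for METTL7A and 0.942 for PCCA, a subunit gene of the enzyme that takes propionate into metabolism. In the 5 libraries low in first exons FAT1 was at 0 to 2.23, and at 1.00 to 3.72 in the other 11. PCCA was at 9.37 to 39.9 in the 5 and at 23.3 to 55.7 in the other 11. Neither was among the 5 closest genes over 16 libraries. Over 16 libraries r was 0.978 for METTL7A, 0.971 for DRAM2 and for ITGA6, 0.968 for DPYD and 0.957 for AHCYL1. These values describe 16 animals that share the split in first-exon coverage: 70.7% of tested genes had an absolute r over 0.5 with SLC16A1 over 16 libraries, and 29.2% over the 11. Among the 11, ITGA6 averaged 7.50 ± 1.81 in 7 high-intake and 11.6 ± 0.475 in 4 low-intake libraries (SD). Its ranges did not overlap, as for 1.29% of tested genes in this direction. ITGA6 was picked for its likeness to SLC16A1 in these same libraries, so its separation by intake is not a second result. METTL7A ranged between 60.9 and 174 in high-intake libraries and between 138 and 213 in low-intake ones there, so its groups overlapped. For SLC16A3, no gene was among the 5 closest both times. LPHN1, MRPL38, ORAI1, TMSB10 and DOC2A (r = 0.928 to 0.918) were closest over 11 libraries. PDCD1, RANBP1, C29H11orf83, GLT25D1 and C23H6orf64 (r = 0.965 to 0.953) were closest over 16. An absolute r over 0.5 with SLC16A3 held for 69.1% of the ranked genes over 16 libraries and for 25.5% over the 11.

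**Figure D5:**
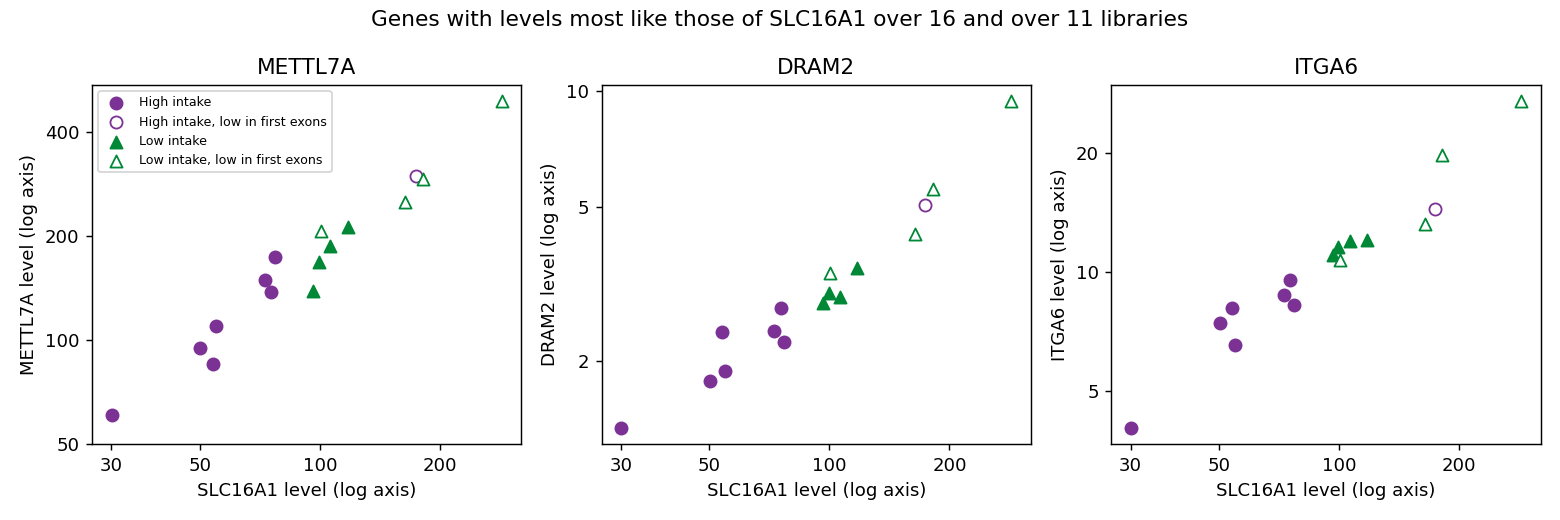
Levels of METTL7A, DRAM2 and ITGA6 against the level of SLC16A1 in 16 libraries (both axes log, scaled mean read coverage per base); circles are high-intake and triangles low-intake animals, and open symbols are the 5 libraries low in first exons. The log2 levels of all 3 genes correlate with those of SLC16A1 (Pearson r = 0.949 to 0.966 over the 11 libraries less low in first exons).

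Markers of other cells were checked beside the intake difference of SLC16A1. Of the rumen epithelium markers 9 of 10 were measured, all above 0 in every library, with summed levels of 2525 to 4873 in high-intake and 1186 to 3930 in low-intake animals, and 2 of 9 had lower estimates at high intake. The endothelial list, measured in 7 of 7 genes, summed to 9.15 to 29.5 at high intake and 8.56 to 32.3 at low intake, with 4 of 7 estimates lower; CLDN5, VWF and EGFL7 were at 0 in some libraries. The fibroblast list (6 of 6) summed to 132 to 290.1 at high intake and 147 to 899 at low intake, with 5 of 6 estimates lower and COL1A1 at 0 in some libraries. Smooth muscle markers (6 of 6) summed to 2.08 to 42.4 at high intake and 3.25 to 96.8 at low intake, with CNN1, DES and LMOD1 at 0 in some libraries. Leukocyte markers (6 of 7) summed to 19.3 to 49.4 at high intake and 17.99 to 32.6 at low intake, with CD163 at 0 in some, and 2 of 6 estimates were lower in each of these lists. Of erythrocyte markers 3 of 5 were measured, with sums of at most 1.14 at high and 1.66 at low intake, and skeletal muscle markers (5 of 5) summed to at most 5.84 at high and 8.03 at low intake. Without the 5 libraries low in first exons, sums at high and low intake were 2525 to 4873 and 2933 to 3880 for epithelium. They were 9.36 to 29.5 and 18.7 to 32.3 for endothelium, and 132 to 290.1 and 244 to 310 for fibroblasts. For smooth muscle they were 8.99 to 42.4 and 18.8 to 96.8, and leukocyte sums kept their ranges. The part of these lists in the SLC16A1 difference was not tested.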

How the data were processed

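Polyadenylated RNA of 16 papilla samples, 1 per animal, was sequenced in single 50-base reads, per the labels' protocols. TopHat2 2.08b and UMD3.1, a cattle genome build, appear in the submitters' processing notes; for aligner settings, annotation release and coverage tool, nothing was given in the sources used here. As deposited by the authors, the signal values are mean read coverage per base of 2351373 regions times 1 factor per library. The unit was worked out from the values: coverage summed over regions comes to 591 to 596 Mb per library, and 93.6% to 99.3% of regions of 1 read length covered in a single library hold that library's 1-read value within 0.011. Read numbers are estimates from that value; without read counts no intervals were computed. Columns were matched to animals by the number in each title, and replicates are numbered in accession order. Nothing says how animals were spread over extraction or sequencing batches.

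A gene is represented by the exon region with its highest mean; 523 regions shared by exons of several genes were set aside. Genes reaching 0.5 in 4 or more libraries entered limma 3.58.1 (R 4.3.3, trend and robust) as log2(level + 0.1), on 4 group means over all libraries, two-sided, Benjamini-Hochberg over 9470 genes, threshold 0.05. The code of the fit was checked on simulated data with a larger change and less spread than SLC16A1 has, and without the split in first-exon coverage. That check does not measure the power of the fit here. Exact permutation tests were two-sided; correlations used 100000 permutations. The first-exon index used genes with at least 6 exons whose other exons had a mean of at least 5. Members, lists and tests were chosen with earlier results of these data known. Named genes are both carriers, the measured carrier list and the 2 most highly covered genes of each other list. The 5 genes closest to each carrier are also named, with bare locus numbers left out. ACAT1 and SLC9A3 were added after their values were seen. A few genes under this rule are not reported here, though they remain in the fits and counts. Alternatives covered pseudocounts, filter, gene level, scaling, limma options, the first-exon index and libraries left out.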

Additional observations from a re-analysis of the deposited data

Results flagged for a closer look

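Within groups of 4 animals, a sample was picked out when its gap to the nearest other sample was large against the range of the group (Dixon's test at 95%). Of 40 groups tested over 10 measures, 10 held such a sample, where chance gives about 5% of groups; the measures of SLC16A1 share animals and are not independent. For the SLC16A1 level these were HGHI replicate 4 at 174, against 50.2 to 54.8 in the other 3 animals, LGHI replicate 4 at 30.1, against 72.8 to 77.0, and LGLI replicate 3 at 286, against 96.4 to 106. The first and the last of these libraries are low in first exons, and LGHI replicate 4 is not, with SLC16A1 at its lowest of all 16 animals.

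LGLI replicate 3 also stood apart in the other regions of SLC16A1: at 6.99 for exon 2 (others 3.21 to 3.57), 17.2 for exon 3 (9.65 to 10.7), 142 for the longer region of exon 4 (95.1 to 99.9), 3.42 for its shorter region (0.40 to 0.71) and 108 for the downstream regions (35.4 to 39.3). HGHI replicate 4 stood apart at 72.8 in the downstream regions (others 20.4 to 23.6). HGLI replicate 4 was at 6.25 in the upstream region (others 3.81 to 3.91).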

How the results depend on the processing

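No paired analysis was possible because animals carry no shared replicate number in the labels. The lower SLC16A1 level at high intake kept its direction in every alternative, from -1.25 (without HGHI replicate 4) to -0.85 (without LGLI replicate 3) with 1 library left out and from -1.16 to -0.67 in the others, with limma adjusted p from 0.186 to 0.803. The exact permutation test of the gene by itself gave p = 0.00606 at -1.03 over all 16 libraries. The difference was -0.88 without the 5 libraries low in first exons, an alternative added after seeing the data. That p is for a gene chosen with earlier results known, and is not adjusted over genes or over the tests of both carriers. For gain, SLC16A1 reversed to -0.44 with the first-exon index and to -0.21 without the 5 libraries as a plain difference of means (0.02 in limma), and ran from -0.054 to 0.35 with 1 library left out. Its interaction was -0.40 without the 5 libraries and -0.24 to 0.36 with 1 left out. SLC16A3 reversed to 0.035 for gain with the index and, as a plain difference of means, to -0.24 for intake without the 5 libraries (0.01 in limma). Pairs of groups that reversed were SLC16A1 in HGHI minus LGHI (-0.17 without the 5 libraries; -0.17 to 0.42 with 1 left out) and in HGLI minus LGLI (-0.079 to 0.44), and SLC16A3 in LGHI minus LGLI (-0.033 with a pseudocount of 1, -0.49 without the 5 libraries, -0.49 to 0.53 with 1 left out) and in HGHI minus LGLI (-0.91 to 0.15). The cause was not tested. Centring on library medians shifts all genes by -0.20 for gain, 0.13 for intake and -0.33 for HGLI minus LGHI. Depth limits SLC16A3 to an estimated 1.02 to 38.4 reads per library. No exon region passed with or without the filter.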
